A study of Mus musculus with 14 samples.

Results

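NF-kB is the group of transcription factors that turns on inflammatory genes, and the members described here are its genes and a few of its inhibitors and targets. They are the 5 factor genes Nfkb1, Nfkb2, Rel, Rela and Relb, the 3 inhibitor genes Nfkbia, Nfkbie and Tnfaip3, and the 2 cytokine genes Tnf and Il1b, 10 of 21887 protein-coding genes of the reference table. The genes were chosen by name and not by a measured value. Each was read over its RefSeq span on mm10 plus 10 kb on either side, called its window.

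The cells were progenitors from bone marrow of C57BL/6 mice, depleted of lineage-positive cells and labelled UTX WT or UTX KO, where UTX is the histone demethylase encoded by Kdm6a. Histone H3 acetylated at lysine 27 (H3K27ac, a mark of active promoters and enhancers) and trimethylated at the same residue (H3K27me3, the Polycomb mark) were precipitated in 2 WT and 2 KO libraries each, UTX in 2 WT libraries, and IgG in the 1 library used here. By its label this IgG library belongs with a BCOR precipitation. A second IgG sample, labelled for the UTX precipitation, and 2 inputs were not analysed here. The allele, the Cre driver if any, the age of the mice and whether a library came from 1 animal or from pooled animals are not given in the sources used here. The p-values below therefore measure the spread between libraries, which may be technical.

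NF-kB factors act as pairs. Rela, Relb and Rel carry an activation domain, whereas Nfkb1 and Nfkb2 encode the precursors p105 and p100 that are shortened to p50 and p52. The pairs are held in the cytoplasm by inhibitors such as IkB-alpha (Nfkbia) and IkB-epsilon (Nfkbie), signals from receptors for TNF and interleukin 1 destroy these inhibitors, and the freed factors switch on cytokine genes together with Nfkbia and Tnfaip3, which shut the response down again. In blood progenitors the pathway is known for inflammatory signals that push cells towards myeloid output.

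The promoters of the genes on which the results turn are shown first. H3K27ac islands of all 4 libraries lay over each of the 4. UTX islands of both UTX libraries lay over those of Nfkbia and Tnfaip3, an island of UTX library 1 only over that of Rel, and none over that of Il1b. The sequences are from RefSeq (GRCm38.p6), 250 bases before the start of transcription, read 5′ to 3′ on the strand of the gene, with matches to the kappa-B consensus, the binding motif of NF-kB, in capitals. Of the members, 8 had entries in the promoter table. Tnfaip3 also had a second entry (chr10:19011964-19012213, minus strand), not shown. It held no kappa-B match, H3K27ac islands of all 4 libraries lay over it, and no UTX island did. Rel lies at chr11:23770970-23771219 (minus strand), Nfkbia at chr12:55492648-55492897 (minus), Tnfaip3 at chr10:19015411-19015660 (minus) and Il1b, which has no match, at chr2:129371140-129371389 (minus).
Rel: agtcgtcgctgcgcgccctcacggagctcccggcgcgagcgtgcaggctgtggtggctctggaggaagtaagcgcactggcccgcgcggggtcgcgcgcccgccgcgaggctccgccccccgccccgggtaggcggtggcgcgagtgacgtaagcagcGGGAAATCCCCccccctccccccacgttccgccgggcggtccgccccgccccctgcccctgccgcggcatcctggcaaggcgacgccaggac
Nfkbia: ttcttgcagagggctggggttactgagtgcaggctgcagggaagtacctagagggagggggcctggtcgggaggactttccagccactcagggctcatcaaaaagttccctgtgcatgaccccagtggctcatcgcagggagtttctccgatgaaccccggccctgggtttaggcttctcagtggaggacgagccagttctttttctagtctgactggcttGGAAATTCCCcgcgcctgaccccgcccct
Tnfaip3: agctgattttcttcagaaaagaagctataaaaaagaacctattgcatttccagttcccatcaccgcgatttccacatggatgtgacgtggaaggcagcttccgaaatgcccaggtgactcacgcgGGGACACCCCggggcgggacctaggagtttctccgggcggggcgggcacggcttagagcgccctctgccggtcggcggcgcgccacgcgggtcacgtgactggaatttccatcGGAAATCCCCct
Il1b: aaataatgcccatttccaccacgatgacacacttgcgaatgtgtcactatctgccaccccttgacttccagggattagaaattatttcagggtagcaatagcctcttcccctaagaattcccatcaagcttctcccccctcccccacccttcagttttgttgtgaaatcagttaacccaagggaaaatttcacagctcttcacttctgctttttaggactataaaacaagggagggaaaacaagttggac

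The Rel promoter held 77.6% G and C and 37 CpG, Tnfaip3 58.8% and 22, Nfkbia 59.2% and 8, and Il1b 44.4% and 2. Over the full windows of 300 bases, the kappa-B consensus (10 bases, both strands) was found in 7 of 11 listed promoters, belonging to 5 of 8 members, and in 8.46% of 32851 promoters of all genes. The 5 were Rel, Nfkbia, Tnfaip3, Nfkbie and Nfkb2. A promoter counted as 1, also where matches overlapped, as at Rel. The third listed promoter of Nfkb2 overlaps the second, and its only site (chr19:46305705-46305714) also lies in the second. The site in Nfkbie (chr17:45555594-45555603, plus strand) and the pair of sites at the first of the 3 listed starts of Nfkb2 (chr19:46304698-46304707 and chr19:46304726-46304735, plus strand) are shown with 10 bases on either side.
Nfkbie: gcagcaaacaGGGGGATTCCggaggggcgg
Nfkb2 site 1: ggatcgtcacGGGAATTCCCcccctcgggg
Nfkb2 site 2: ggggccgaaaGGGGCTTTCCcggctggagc

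Other motifs searched on both strands were the AP-1 motif TGANTCA, found in 3 of the 11 member promoters (7.81% of all), the ETS motif CCGGAAG, found in 1, that of Nfkbie (8.86% of all), and the GATA motif AGATAA, found in 0 of 11 (11.2% of all). The AP-1 motif stood in Tnfaip3, Nfkbie and the second listed promoter of Nfkb2. A match describes these letters and not a bound factor.

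Depth was the count of reads in islands, the enriched stretches listed for each library. It ran from 9330823 to 15256696 in H3K27ac, from 2347442 to 2743508 in H3K27me3 and from 816567 to 1834418 in UTX, and was 154029 in IgG. Values are given as rpm, reads scaled to 1000000 island reads in each library, and fold changes as log2 of KO over WT from edgeR, which rescales libraries by the TMM method. Before that rescaling, H3K27ac regions had a median log2 fold change of 0.071, so a KO value slightly above WT in rpm can carry a fold change near 0. Kdm6a itself (chromosome X, 18160862 to 18279936) held H3K27ac at 197.2 and 102.4 rpm in WT and 181.1 and 185.1 rpm in KO, so these lists do not check the genotype labels. All 7 progenitor marker genes (Kit, Cd34, Gata2, Myb, Flt3, Meis1 and Mpo) held an H3K27ac island in each of the 4 libraries. Their sums were 1703 and 1719 rpm in WT and 1675 and 1483 rpm in KO, with a median log2 fold change of -0.46. Kit fell (-0.45, edgeR adjusted p = 0.0428), the other 6 did not pass, and their values were negative at Gata2 (-0.65), Meis1 (-0.56), Cd34 (-0.47) and Flt3 (-0.46) and positive at Myb (0.23) and Mpo (0.45).

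Markers of other cells also differed between WT and KO, and their part in the results below was not tested. With edgeR the windows of 4 of 4 erythroid genes fell, and those of Pax5 (B cell), Adgre1 (macrophage) and Ltf (neutrophil) rose. Summed H3K27ac of 4 erythroid genes was 444.5 and 477.3 rpm in WT and 169.3 and 175.4 rpm in KO, and that of 4 B cell genes 286.6 and 260.5 against 362.4 and 460.4 rpm. For 5 monocyte and macrophage genes the sums were 581.8 and 622.5 in WT and 629.4 and 646.3 in KO. For 5 neutrophil genes they were 113.3 and 104.2 against 168.4 and 126.1, where 3, 3, 0 and 2 of the genes had no island. For 4 T cell genes the sums were 213.5 and 136.3 against 164.2 and 198.6. In whole populations, more cells of a type and more signal per cell cannot be told apart.

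H3K27ac lay over 10 of 10 members in all 4 libraries, as it did over 61.8% of all genes. In these windows it formed 24 regions (islands of the 4 libraries merged where they overlapped), and 19 had an island in every library and were tested. Of the 19, 5 rose in KO, 1 fell and 13 did not pass (edgeR, Benjamini-Hochberg adjusted p under 0.05 over 18820 regions). Over the whole genome 12.0% of tested regions rose and 14.0% fell, 26.0% in all. The median log2 fold change of the 19 was 0.19 and that of all regions 0. The regions that rose lay at Rel, Nfkb2, Nfkbia, one end of Nfkb1 and the Ltb side of Tnf, and the one that fell lay over Il1b. WT and KO libraries did not overlap in rpm at any called region, but also not at most regions that did not pass. Non-overlap is therefore no separate support for a call. Over all tested gene windows both KO libraries lay above both WT libraries at 37.7% and below them at 30.3%.

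**Figure D1:**
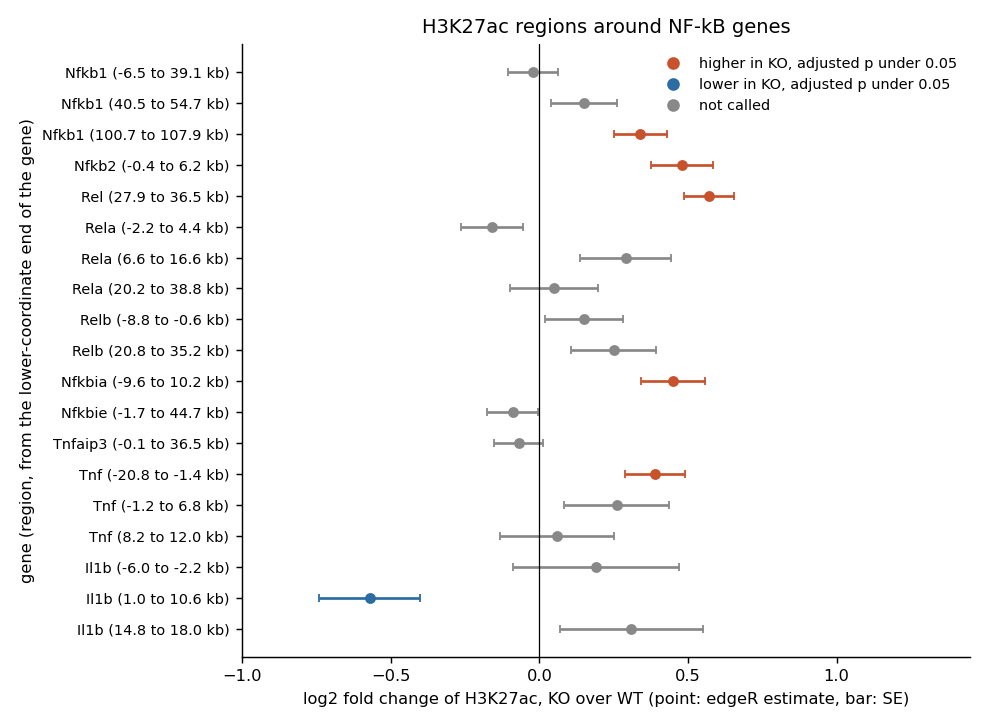
Log2 fold change of H3K27ac (KO over WT, point) with its SE (bar) for the 19 tested regions, named by gene and by distance in kb from the lower-coordinate end of the gene. The 5 regions that rose lie between 0.34 and 0.57, and the region over Il1b at -0.57.

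Among the factor genes, Rel showed the largest rise. Rel encodes c-Rel, the NF-kB subunit most used by lymphocytes and activated myeloid cells. Its single H3K27ac region (chromosome 11, 23764801 to 23773400) spans the transcription start and held 97.7 and 87.5 rpm in WT and 150.8 and 145.7 rpm in KO. The WT and KO libraries did not overlap. KO exceeded WT by a log2 fold change of 0.57 (SE 0.085, edgeR adjusted p = 0.00388, 2 libraries each), and Rel still passed when any 1 of the 4 libraries was left out. The islands were also longer in KO, 8.4 and 7.0 kb against 5.2 and 6.0 kb in WT. Per covered length the libraries overlapped, at 18.8 and 14.6 rpm per kb in WT and 17.95 and 20.8 in KO (log2 fold change 0.11, edgeR adjusted p = 0.815).

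Nfkb2, the gene of p100 and p52 of the non-canonical pathway, differed along its length. The region over its listed starts (chromosome 19, 46300601 to 46307200) rose from 58.9 and 51.0 rpm in WT to 81.5 and 83.6 rpm in KO. The groups did not overlap (log2 fold change 0.48, SE 0.103, edgeR adjusted p = 0.0155). Leaving out KO replicate 1 (adjusted p = 0.066), KO replicate 2 (0.0693) or WT replicate 2 (0.063) ended the call, as did counting per covered length (0.27, 0.642). Further along, 2 H3K27ac regions were listed in both WT libraries and in neither KO library. The first, inside the gene (46308201 to 46310600), held 46 and 74 reads in WT, and the second, beyond the gene over its neighbour Psd (46313201 to 46316600), 205 and 290 reads, or 22.0 and 19.0 rpm. Of all merged H3K27ac regions 9.28% had this pattern. The smallest islands listed in the KO libraries held 32 and 24 reads. With one region higher and the others not listed in KO, the sum over the whole Nfkb2 window was 85.8 and 74.9 rpm in WT and 81.5 and 83.6 rpm in KO (log2 fold change 0.00, SE 0.101, edgeR adjusted p = 0.988).

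The same stretch beyond Nfkb2 carried H3K27me3 in all 4 libraries. That region (46311201 to 46327800) covers Psd, a gene for an exchange factor of small GTPases. Its islands began at 46312201 and 46311201 in WT and at 46314001 and 46312601 in KO, around the end of Nfkb2 at 46312400. The starts in WT replicate 1 and KO replicate 2 lay close together, as islands are listed in steps of 200 bases. A difference in start between WT and KO was not tested. The region held 237.3 and 339.2 rpm in WT and 286.3 and 329.1 rpm in KO. WT and KO overlapped (log2 fold change -0.02, SE 0.186, edgeR adjusted p = 0.988). In both WT libraries the H3K27ac island over Psd lay within the H3K27me3 island, and in KO no H3K27ac island was listed there. UTX islands covered the listed starts of Nfkb2 at 46304737 and 46305695 in both UTX libraries (75.9 and 79.6 rpm). The listed start at 46305930 was covered by the island of library 2 only. UTX islands also stood over the H3K27ac islands listed in WT only in library 2 (40.3 and 46.9 rpm), and farther into Psd in both libraries (30.6 and 49.6 rpm).

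**Figure D2:**
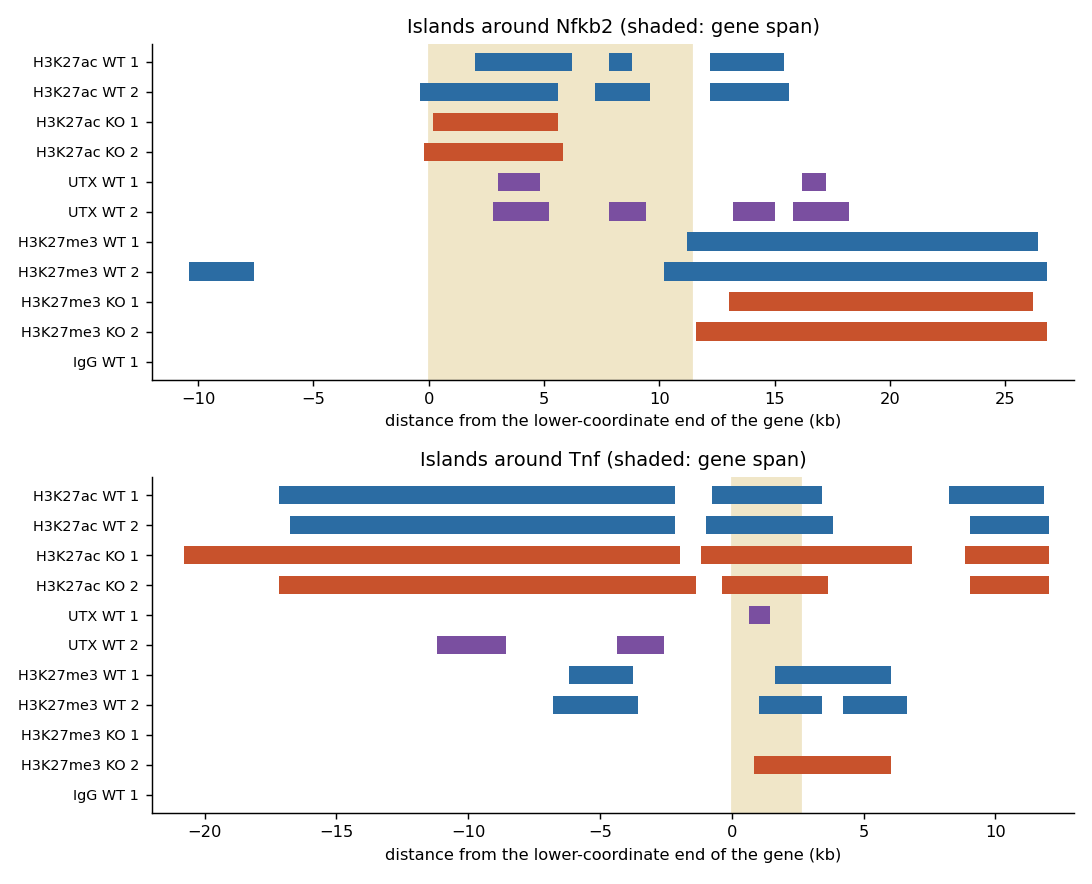
Islands of each library (bars) around Nfkb2 and Tnf, by distance in kb from the lower-coordinate end of the gene (shaded span). At Nfkb2 the WT libraries list 3 H3K27ac islands each and the KO libraries 1 each, and at Tnf the H3K27me3 islands over the Ltb side are listed in both WT libraries and in neither KO library.

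Nfkb1, the gene of p105 and p50, carried the most H3K27ac of the members in its window of 127.3 kb, 377.4 and 375.6 rpm in WT and 457.2 and 433.0 rpm in KO. KO lay above WT in both libraries, but the window did not pass (log2 fold change 0.20, SE 0.081, edgeR adjusted p = 0.144). The signal fell into separate regions. The widest, 45.6 kb at the lower-coordinate end, held 243.2 and 244.4 rpm in WT and 271.3 and 248.5 rpm in KO (-0.02, adjusted p = 0.877). The region at the other end (chromosome 3, 135685401 to 135692600) rose from 76.7 and 73.1 rpm to 102.5 and 102.3 rpm (0.34, SE 0.088, edgeR adjusted p = 0.0309). That call ended with DESeq2 (0.054), per covered length (0.492) and without each of the 4 libraries in turn (0.077 to 0.155). A smaller region inside the gene (135673201 to 135677800) was listed in both KO libraries, with 139 and 149 reads, and in neither WT library, a pattern of 5.18% of all regions.

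Rela, encoding p65, the main activating subunit, did not pass in any of its 3 regions. At its start (chromosome 19, 5635201 to 5641800) H3K27ac was 124.2 and 99.4 rpm in WT and 105.9 and 109.6 rpm in KO, with KO inside the WT range (-0.16, SE 0.104, edgeR adjusted p = 0.303). The window sum was 151.1 rpm in WT replicate 1 and 215.4 in WT replicate 2, against 224.2 and 235.2 in KO. An island that runs over the neighbours Sipa1 and Pcnx3 met the edge of the window in all libraries but WT replicate 1. With reads apportioned by overlap the window change was 0.02 in place of 0.28 (SE 0.205, edgeR adjusted p = 0.367). Relb, the partner of p52, had 80.4 and 78.1 rpm in WT and 90.8 and 107.4 in KO over its window (0.28, SE 0.112, edgeR adjusted p = 0.143), and neither of its 2 regions passed.

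Of the inhibitors, Nfkbia was the one that rose. It encodes IkB-alpha, itself an NF-kB target, and its region (chromosome 12, 55479801 to 55499600) covers the whole gene and no other protein-coding gene. It held 101.5 and 108.7 rpm in WT and 142.8 and 168.7 rpm in KO. The groups did not overlap (edgeR adjusted p = 0.0229, log2 fold change 0.45, SE 0.107). Leaving out KO replicate 2 (adjusted p = 0.118) or WT replicate 1 (0.101) ended the call, as did counting with islands required in 2 libraries only (0.0697). KO replicate 2 listed 19.0 kb of islands there against 11.4 to 12.8 kb in the other 3 libraries, and per covered length the change was 0.04 (0.943). The Nfkbia window holds the same reads as the region, so its call is no separate support. It passed with edgeR (0.53, adjusted p = 0.0445), but not with the replicate block (0.0504) or a margin of 5 or 20 kb (0.0546 and 0.0729). It also missed with islands in at least 2 libraries (0.052) and per covered length (0.12, 0.871). Without each of the 4 libraries in turn it did not pass either (log2 fold change 0.42 to 0.62).

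Tnfaip3 and Nfkbie did not pass. Tnfaip3 encodes A20, the enzyme that edits ubiquitin chains to end NF-kB signalling. Its window held 134.5 and 127.2 rpm in WT and 133.2 and 128.5 rpm in KO and the groups overlapped (log2 fold change -0.04, SE 0.087, edgeR adjusted p = 0.777). Nfkbie encodes IkB-epsilon, and its H3K27ac region of 46.4 kb runs on over Slc35b2, Hsp90ab1 and Slc29a1. It held 413.1 and 399.5 rpm in WT and 382.0 and 446.1 rpm in KO, with WT inside the KO range (-0.09, SE 0.085, adjusted p = 0.492). On its other side an H3K27me3 region over Tcte1 and Tmem151b (chromosome 17, 45522201 to 45552200) stopped before the gene, with 400.9 and 540.8 rpm in WT and 438.8 and 499.8 in KO (-0.12, adjusted p = 0.895).

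Of the 2 cytokine genes, Il1b had a region over the gene that fell, while no region over Tnf itself passed. The difference between them was not tested. Il1b, encoding interleukin 1 beta, has 1 region over the gene (chromosome 2, 129365601 to 129375200), which fell from 39.3 and 41.6 rpm in WT to 25.8 and 33.4 rpm in KO. The groups did not overlap (log2 fold change -0.57, SE 0.17, edgeR adjusted p = 0.0463). It did not pass without TMM (0.0648), per covered length (0.363), with islands in at least 2 libraries (0.0824), or when KO replicate 1 (0.212), WT replicate 2 (0.188) or WT replicate 1 (0.099) was left out. The smaller regions on either side did not pass (0.19 and 0.31), and the window sum was 53.9 and 57.4 rpm in WT and 45.9 and 53.0 in KO (-0.21, adjusted p = 0.299).

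At Tnf the region that rose did not lie over Tnf itself. It covers the neighbours Lst1 and Ltb (chromosome 17, 35178601 to 35198000), Ltb being the gene of lymphotoxin beta, and held 112.1 and 110.6 rpm in WT and 169.1 and 146.5 rpm in KO. The groups did not overlap (edgeR adjusted p = 0.0295, log2 fold change 0.39, SE 0.101). It did not pass per covered length (0.634), with islands in at least 2 libraries (0.0949), or when KO replicate 1 (0.182), WT replicate 1 (0.128) or WT replicate 2 (0.0992) was left out. The region over Tnf and Lta (35198201 to 35206200) held 33.8 and 32.8 rpm in WT and 49.2 and 36.9 rpm in KO and did not pass (0.26, SE 0.176, adjusted p = 0.321). The whole Tnf window, at 163.4 and 160.5 rpm against 238.0 and 202.7 rpm, did not pass with edgeR (0.41, adjusted p = 0.0784) and passed with DESeq2 (0.40, 0.0437).

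Tnf was also the member with weak H3K27me3 islands on the gene. Over Tnf and Lta these held 82 and 78 reads in WT, none was listed in KO replicate 1, and KO replicate 2 held 88 reads. Over Ltb they held 67 and 60 reads in WT and were listed in neither KO library, as were 6.50% of all merged H3K27me3 regions. The reverse, islands in both KO libraries and in neither WT library, was seen at 1.86% of all and at no member. Neither had a value in all 4 libraries, so neither was tested.

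Across the windows as a whole, 2 of 10 members rose (Rel and Nfkbia) and 0 fell with edgeR, where 10.6% of 13516 windows rose and 12.1% fell. The windows of Rel and Nfkbia hold the same reads as their regions, so these calls repeat those of the regions. At an unadjusted p under 0.05 no further member fell, and DESeq2 called Tnf higher as well and no member lower. KO exceeded WT in both libraries at 6 members, as it did at 37.7% of all windows, and lay below WT in both at Nfkbie and Il1b, as at 30.3% of all windows. At Nfkbie this direction rests on an island that lies mostly outside the window: the log2 fold change of -0.15 turned to 0.64 (edgeR adjusted p = 0.059) with reads apportioned by overlap and to 0.25 (0.278) with a margin of 20 kb. At Rela, among the 6, apportioned reads overlapped between WT (151.1 and 132.5 rpm) and KO (145.2 and 152.0 rpm), with a log2 fold change of 0.02. With whole islands the median log2 fold change was 0.24 for the members and 0.011 for all windows. The window of Rel missed the threshold when KO replicate 1 (edgeR adjusted p = 0.0856), KO replicate 2 (0.0698) or WT replicate 2 (0.0739) was left out.

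**Figure D3:**
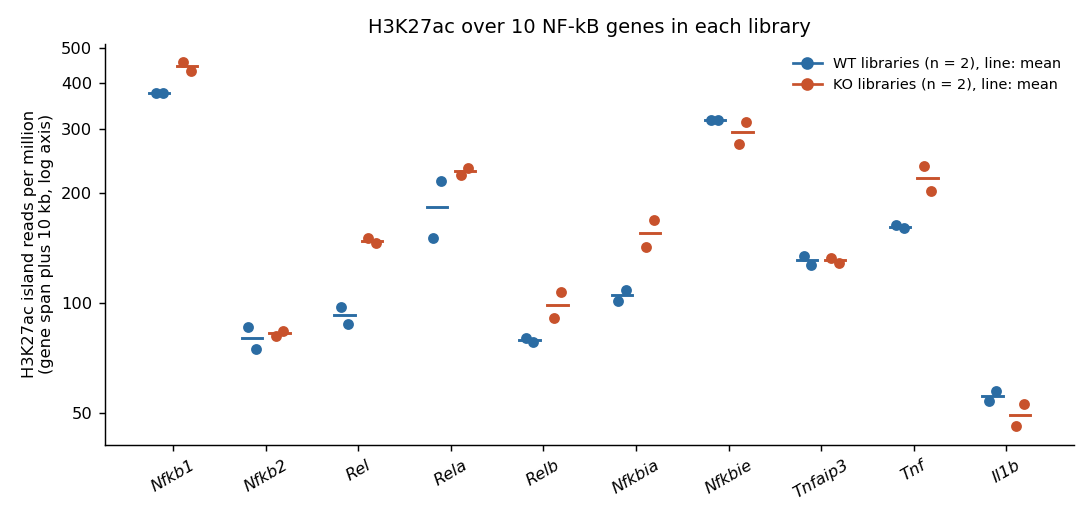
H3K27ac in rpm over the span of each gene plus 10 kb, on a log axis, for 2 WT and 2 KO libraries (points) with their mean (line). Both KO points lie above both WT points at Nfkb1, Rel, Rela, Relb, Nfkbia and Tnf. At Rela this rests on an island at the window edge that was not met in WT replicate 1.

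Length and density of the islands both entered these sums. Of the 6 regions called, none kept its call per covered length with edgeR, and none changed sign. At Nfkb1 and the Ltb side of Tnf the KO libraries were denser than both WT libraries (14.2 and 14.6 against 11.6 and 10.45 rpm per kb, and 8.99 and 9.27 against 7.47 and 7.57), and at Il1b less dense (3.80 and 3.97 against 4.80 and 4.83). At Rel, Nfkb2 and Nfkbia the densities did not separate all KO from all WT libraries.

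**Figure D4:**
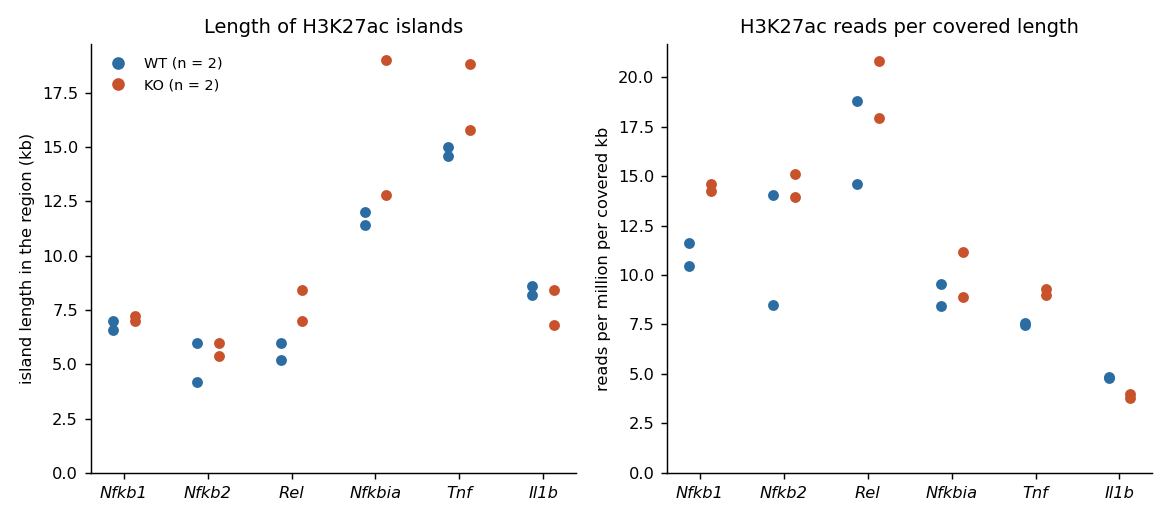
Length of the H3K27ac islands (left, kb) and rpm per covered kb (right) in the 6 called regions, for 2 WT and 2 KO libraries (points, linear axes from 0). The region labelled Tnf is the one over Ltb and Lst1. Island length is above both WT libraries in both KO libraries at Rel, Nfkbia and the Tnf region. The Nfkb1, Tnf and Il1b points separate by genotype on the right.

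The level per length of window depends on how islands that cross its edge are counted, so reads were also apportioned by the share of each island inside the window, a choice made after seeing the data. On that scale WT H3K27ac was 5.001 ± 1.296 rpm per kb (SD, n = 2) at Nfkbie, 4.84 ± 0.0184 at Tnf, 4.62 ± 0.43 at Rela and 4.52 ± 0.219 at Nfkbia, and each of these differed from the next by less than their summed SDs. Below them stood Tnfaip3 (3.598 ± 0.0105), Nfkb1 (2.96 ± 0.00952), Nfkb2 (2.56 ± 0.248), Il1b (2.04 ± 0.0258), Relb (1.83 ± 0.0368) and Rel (1.71 ± 0.134), where Relb and Rel were again within their summed SDs. With whole islands counted, Nfkbie was at 11.6 ± 0.0119 and Tnf at 7.16 ± 0.0911, since islands over their neighbours met the windows at an edge. In KO the apportioned level of Rel was 2.74 ± 0.0657, beside 2.25 ± 0.206 at Relb and 1.66 ± 0.165 at Il1b.

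UTX islands of both WT libraries met 8 of 10 member windows, and 7 of these had no IgG island, against 43.8% of all genes by the same rule. Islands of the 2 libraries overlapped each other at 7 members, which included Tnfaip3 and not Tnf, and at 42.6% of all genes. The 38 UTX islands were narrow, 0.4 to 2.8 kb, and 35 met an H3K27ac island of a WT library, compared with 75.7% and 75.6% of all islands of the 2 UTX libraries.

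A listed start was covered in both UTX libraries at Nfkbia (123.7 and 80.7 rpm), Tnfaip3 (120.0 and 68.1), Rela (100.4 and 74.7), Nfkb2 (75.9 and 79.6) and Nfkbie (44.1 and 46.9). At Tnfaip3 this was the start at 19015410, and no UTX island covered its other listed start, at 19011963. For comparison the median UTX island of these libraries held 51.4 and 40.9 rpm. At Nfkb1 an island of 2.0 kb lay over the higher-coordinate end in both libraries (107.8 and 58.9 rpm), inside the region in which H3K27ac rose. At Rel an island covered the start in library 1 only (79.6 rpm), and library 2, which was the deeper of the 2, listed none in the window.

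At the cytokine genes no UTX island was shared between the libraries. Tnf met islands of both libraries that did not overlap, 27 reads inside the gene in library 1 and 126 and 84 reads over Lst1 and Ltb in library 2. Il1b met 1 island of 21 reads, centred 10839 bases beyond the start in the direction of transcription, in library 1. Relb had overlapping UTX islands over its neighbour Clasrp (41.6 and 32.2 rpm) and an island at its own higher-coordinate end in library 1 (61.2 rpm). An IgG island of 28 reads lay in the Tnfaip3 window, apart from the UTX islands there. It was centred 14863 bases from the nearer listed start, at 19011963. IgG islands met 5.46% of all gene windows.

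**Figure D5:**
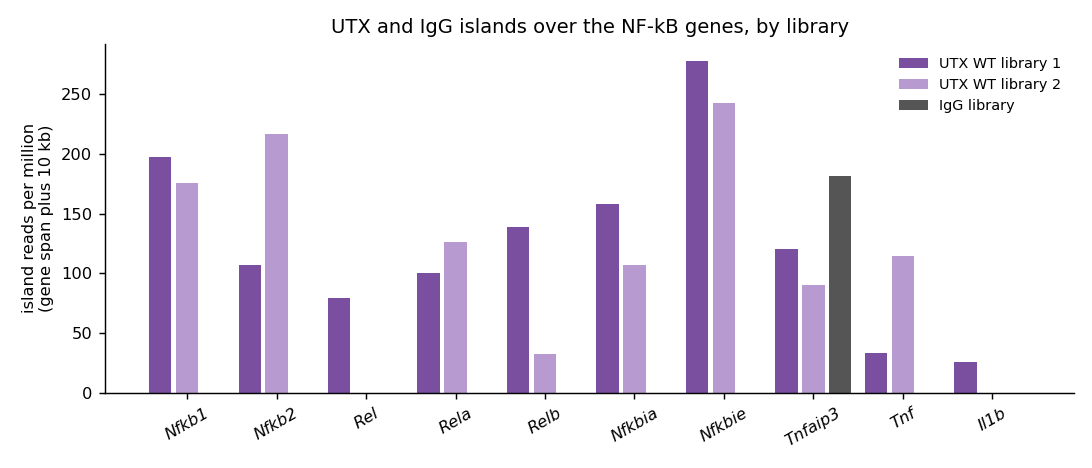
UTX and IgG in rpm over the span of each gene plus 10 kb, for the 2 UTX libraries and the IgG library (bars from 0). Nfkbie has the highest UTX bars, 278.0 and 242.6, with its strongest island over Hsp90ab1, and Rel and Il1b have none in library 2.

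Of the 19 tested H3K27ac regions, 10 held islands of both UTX libraries, as did 38.4% of all tested regions. Among these 10, 4 rose (at Nfkb1, Nfkb2, Nfkbia and the Ltb side of Tnf) and 6 did not pass, while over all tested regions with both UTX libraries 9.46% rose and 19.1% fell. The Rel region, which rose, held an island of UTX library 1 only, and the Il1b region, which fell, held none.

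H3K27me3 was listed at 3 of 10 members, Nfkb2, Nfkbie and Tnf, and at 47.5% of all genes. The other 7 windows had no H3K27me3 island in any of the 4 libraries. The 2 member regions tested did not pass, and over all 6771 tested regions edgeR called 0 higher and 1 lower (0.0148%), where 260 and 257 had an unadjusted p under 0.05, and DESeq2 called 16 higher and 18 lower.

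The rest of the pathway was read from a list of 65 genes chosen for their roles, of which 59 had windows that could be tested. With edgeR 6 rose and 4 fell, 10.2% and 6.78% of those tested, beside 10.6% and 12.1% over all windows, with a median log2 fold change of 0.18. Of 16 receptors and adaptors, Tradd, the adaptor of the TNF receptor (0.60, adjusted p = 0.0439), and Traf3, which restrains the non-canonical kinase (0.51, 0.0381), rose. Il1r1, the receptor of interleukin 1, fell from 145.5 and 162.0 rpm in WT to 62.6 and 79.5 rpm in KO (-1.16, SE 0.153, edgeR adjusted p = 0.0152).

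Of 12 kinases and scaffolds, Map3k14, the non-canonical kinase NIK that acts on p100, rose (0.42, edgeR adjusted p = 0.0426), while Tab1, a partner of the kinase TAK1 (-0.63, 0.0151), and Rbck1, a subunit of the linear ubiquitin ligase (-0.44, 0.0438), fell. Of 8 further inhibitors Nfkbid, a nuclear IkB protein, rose (0.50, 0.0346) and 7 did not pass. Of 23 other targets tested, Irf1, an interferon-responsive factor, rose (0.64, 0.0366) and Tnfaip2 fell (-0.56, 0.0329). Vcam1, the adhesion molecule of endothelial cells and macrophages, rose most in the list, from 37.5 and 41.4 rpm to 215.5 and 198.5 rpm (2.35, SE 0.121, edgeR adjusted p = 0.00617). No UTX island met the Vcam1 window. Of the 5 monocyte and macrophage markers, Adgre1 rose (0.76, edgeR adjusted p = 0.0228) and 4 did not pass (Itgam 0.34, Cd68 -0.01, Csf1r -0.16 and Ccr2 -0.54), with a median of -0.01, and their part in the Vcam1 result was not tested. Vcam1 passed whichever library was left out. Il1r1 missed the threshold without KO replicate 1 (0.0528) or WT replicate 2 (0.0692), and Tab1 without KO replicate 1 (0.0738), KO replicate 2 (0.0731) or WT replicate 2 (0.0629). The other called genes missed it whichever library was left out. Per covered length none of the 10 passed with edgeR, Vcam1 was at 1.06 (0.106), and the sign turned at Tradd (-0.14), Tab1 (0.20) and Rbck1 (1.27), with Irf1 at 0. The 6 genes without a test were Cxcl1, Cxcl2, Il12b, Ptgs2, Nos2 and Cd83.

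Over the 10 histone and UTX libraries, the gene whose window values lay nearest to those of a member (Euclidean distance of log2 of rpm + 1, genes within 1 Mb left out) was Arhgap10 for Rel (distance 0.19), Mpc2 for Tnfaip3 (0.21), Rinl for Nfkb1 (0.28), Rnaseh2b for Nfkbia (0.30) and Ppp1r12a for Rela (0.30). Distances were larger for Relb (Vamp3, 0.41), Il1b (Spc24, 0.43), Nfkb2 (Isg20l2, 0.69) and Nfkbie (Rnaseh2a, 0.95), and largest for Tnf (Zbtb42, 1.53). This describes levels over the same libraries, which share depth and scaling.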

How the data were processed

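ChIP-seq of H3K27ac, H3K27me3, UTX and IgG was read from 11 island lists, 1 per library. Islands were called with SICER on mm10, per the submitters' processing notes. The SICER version, aligner, gap, threshold and control are not given in the sources used here. The deposited values are raw read counts per island, so reads outside islands have no count and a missing island is no measured 0. Library sizes are island reads on the placed chromosomes.

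Within a mark, islands that overlapped between libraries were joined into regions. Regions, and gene windows (RefSeq span plus 10 kb, whole islands summed), were tested if every library had an island. The test was edgeR 4.0.16 in R 4.3.3 (quasi-likelihood, TMM, two-sided), adjusted by Benjamini-Hochberg over all features at 0.05, with 2 libraries a group. DESeq2 1.42.0, other scalings, filters, windows and leaving out each library were alternatives. UTX and motif counts had no test. The SE of a log2 fold change comes from the same edgeR fit, and intervals are not given.

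The members, marker lists and pathway list were chosen with earlier results of these data known. Named were the members, genes sharing islands with them, pathway genes passing the window test (at most 3 per role and direction) and the gene nearest in pattern.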

Additional observations from a re-analysis of the deposited data

How the results depend on the processing

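Counts over all features moved with the processing, and the causes were not tested. For H3K27ac regions, 2258 higher and 2631 lower became 79 and 259 per covered length, 1227 to 1392 and 1369 to 1907 without 1 library, and 5225 lower with islands in at least 2 libraries. For H3K27me3, 0 higher and 1 lower (260 and 257 at an unadjusted p under 0.05 with edgeR) became 16 and 18 with DESeq2, 3 higher per covered length, and 0 to 1 higher and 0 to 6 lower without 1 library. The 1 lower became 0 without TMM, with islands in at least 2 libraries, with a mean of at least 50 reads, with islands of at least 50 reads and with the replicate block. For windows, 1436 higher and 1629 lower became 0 and 0 per covered length (918 and 743 at an unadjusted p under 0.05), and 201 to 589 and 290 to 1107 without 1 library.

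The replicate numbers were not treated as pairing. Deviations of same-numbered WT and KO libraries from their genotype means correlated at 0.046 (H3K27ac regions), -0.052 (H3K27me3 regions) and 0.006 (windows) over 2 pairs. With the replicate block the counts were 2615 higher and 2883 lower for H3K27ac regions, 0 and 0 for H3K27me3 regions, and 789 and 1169 for windows. Of the genes named, the block ended the window calls of Nfkbia (adjusted p = 0.0504), Tradd (0.0707), Traf3 (0.0522), Map3k14 (0.0852), Rbck1 (0.0831), Nfkbid (0.0528) and Irf1 (0.0594), and no member region lost a call.

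Signs turned mostly in results that had not passed. Per covered length the log2 fold change was -0.05 at Nfkb1 region 2, 0.10, -0.02 and -0.67 at the 3 Rela regions, -0.07 over Tnf and Lta, -0.45 and -0.54 on the sides of Il1b, 0.15 at the Nfkb2 H3K27me3 region, and -0.04, -0.12 and 0.37 over the windows of Nfkb1, Rela and Nfkbie. Of called windows it was -0.14 at Tradd, 0.20 at Tab1, 1.27 at Rbck1 and 0 at Irf1. Without TMM Nfkb1 region 1 was at 0.05 and the Tnfaip3 window at 0. With DESeq2 the Nfkb2 window was at 0. With a margin of 20 kb the Nfkbie and Tnfaip3 windows were at 0.25 and 0.01, and with 5 kb Tnfaip3 was at 0.10. With reads apportioned by overlap the Nfkb2, Nfkbie and Tnfaip3 windows were at -0.01, 0.64 and 0.02. Without 1 library in turn, the values that crossed 0 ran from -0.10 to 0.05 at Nfkb1 region 1, -0.14 to 0.30 at Rela region 3, -0.19 to 0.01 at the Nfkbie region, -0.13 to 0.01 at the Tnfaip3 region, -0.09 to 0.42 at Il1b region 1, -0.22 to 0.21 at the Nfkb2 and -0.28 to 0.06 at the Nfkbie H3K27me3 region, -0.07 to 0.07 for the Nfkb2 window and -0.08 to 0 for the Tnfaip3 window.

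The 7 members met by both UTX libraries and no IgG island were 6 with a margin of 20 kb. The 3 members with H3K27me3 were 2 where at least 50% of an island had to lie inside the window. Depth limits what an absent island shows, most of all in UTX and IgG.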
